A study of Mus musculus with 8 samples.

Results

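The authors' merged annotation of mouse macrophage RNA lists 373 multi-exon loci outside the reference gene models, and these are the subject here. Splicing is taken from the assembled exons, and no splice-site sequence was read. In the count data 12 of the loci had 0 counts in every library. A locus was taken when every transcript of it carried the code "u", the authors' mark for a transcript that meets no reference transcript, and when at least 1 transcript had 2 or more exons. The rule picked 373 of 31020 loci, or 1.20%, and used no expression value. The loci were assembled from the same libraries in which they are measured, so each needed reads in at least 1 of them to be listed. RNA came from bone marrow-derived macrophages of the C57BL/6 strain, cells grown from marrow in culture. Interleukin-4 (IL-4) had been given to the cells of 4 libraries and 4 were untreated, and the labels used here give no dose, time or age. The series design calls the samples of a group biological replicates, but no label ties each to an animal of its own. A p-value here therefore speaks of the spread among these 8 libraries, part of which may be technical. All 8 libraries were made from total RNA after DNase treatment and ribosomal RNA depletion, so RNA without a poly(A) tail was kept. The comparison asks which transcripts change in abundance with IL-4.

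Spliced transcription between genes has several known sources. Long intergenic non-coding RNAs are made from promoters of their own, many active enhancers give rise to RNA, and many promoters fire in both directions, which gives a transcript that runs away from the neighbouring gene. IL-4 acts on macrophages through its receptor and the transcription factor STAT6 and drives alternative activation, a state linked to tissue repair and to the defence against worms. Whether any of the transcripts here encodes a protein was not tested, and the files do not pair their identifiers with gene names, so loci are given by chromosome and position on the mouse build mm9. For the same reason the identity of the cells could not be checked against macrophage markers.

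Total counts ran from 23071022 to 27783417 per library, and the 373 loci together took between 79308 and 93516 of them. Chromosome Y loci had 5525 counts in IL-4 replicate 4 and 5808 in untreated replicate 4, against 7 or fewer in each of the other 6 libraries. The replicate 4 libraries thus stand apart from the rest in both groups. Each group mixes cells with and almost without chromosome Y transcripts, so its spread is not technical alone. Levels are given as CPM (the usual count unit relative to library size) after TMM scaling, which adjusts library totals so that most loci do not change. On plain totals the median log2 ratio over all tested loci was -0.13, against a fitted median of -0.02.

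The loci had few exons. The longest transcript had 2 exons in 221 loci, or 59.2%, against 7.15% of 17904 multi-exon protein-coding loci and 32.2% of 2932 multi-exon annotated non-coding loci. A further 85 loci had 3 exons, 30 had 4 and 37 had 5 or more, up to 17. The exons of a locus covered a median of 2335 nucleotides (nt), with a range of 253 to 28530, which lies between the medians of 3838 nt for multi-exon coding loci and 1365 nt for multi-exon annotated non-coding ones. The genomic span had a median of 6.58 kb and reached 159.66 kb. The loci were split evenly between strands, with 189 on the plus and 184 on the minus strand, and 8 lay on chromosome X. The authors' annotation gave them 785 transcripts, of which 632 were spliced and 153 had a single exon, and 175 loci had 1 transcript each. The nearest locus with a reference transcript lay a median of 13.1 kb away, with a range of 0.016 to 1762.6 kb. The span of 25 loci contains or meets a locus with a reference transcript on either strand, and for these the distance is to the nearest one outside the span.

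Some loci share exonic bases with another locus. This held for 51 of the 373, on either strand, and 18 of them shared 90% or more of their exonic bases. How the authors' counting treated such bases was not given in the sources used here. All 12 loci with 0 counts in every library shared at least 87.4% of their exonic bases, and all 18 loci that shared 90% or more failed the filter on low counts. Counts of loci with shared bases are therefore uncertain.

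Most of the loci were expressed at a low level. Of the 373 loci, 309 passed the filter and were tested, and the other 64 had at most 110 counts in total. The tested loci had a median mean level of 1.69 CPM. Summed over isoforms and scaled by length, their median was 0.466 FPKM, fragments per kilobase of transcript relative to library size, against 0.478 for single-exon intergenic loci, 0.578 for annotated non-coding loci and 6.97 for coding loci. By this scale per length, 94 loci reached 1 FPKM, 42 reached 5 FPKM and the highest had 456 FPKM.

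The reads were unevenly spread, and the 8 most abundant loci held 45.4% of them. The most abundant was a 2-exon locus at chr5:115552816-115557930 on the minus strand, which alone held 11.2%. It had 368, 381, 414 and 361 CPM in the IL-4 libraries and 343, 391, 369 and 409 CPM in the untreated ones. The groups overlapped, and the log2 fold change was 0.01 (SE 0.07, edgeR adjusted p = 0.909). The locus lies 2.38 kb downstream of a coding locus on its own strand that rose with IL-4 (log2 fold change 0.62, edgeR adjusted p = 0.000214). The next ones, at chr1:97395161-97395791 and chr8:105388637-105389776, averaged 241 ± 14.98 and 234 ± 2.34 CPM with IL-4, against 265 ± 10.01 and 252 ± 22.3 CPM without it (SD, n = 4 each). Neither passed the test, with log2 fold changes of -0.14 and -0.11, although the first passed without untreated replicate 1 (edgeR adjusted p = 0.0484). The locus at chrX:57298291-57299499, with 145 ± 7.56 CPM in IL-4 and 138 ± 3.02 CPM in untreated cells, did not pass in any setting, with edgeR and DESeq2 adjusted p of 0.169 or more.

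Among the abundant loci that changed, the direction was mixed. The locus at chr3:92493220-92495104 had 150, 165, 171 and 140 CPM in the IL-4 libraries, all above the 99.8, 101, 104 and 100 CPM of the untreated ones, and rose by 0.63 on the log2 scale (SE 0.07, edgeR adjusted p = 2.41e-05). The locus at chr7:126883425-126885744 had 86.4, 78.1, 72.2 and 92.5 CPM with IL-4, all below the 178, 134, 133 and 150 CPM without it. It fell by 0.86 on the log2 scale (SE 0.11, edgeR adjusted p = 5.36e-05). The locus at chr4:6275971-6284610 fell by 0.61 (116 ± 22.9 CPM with IL-4 against 177 ± 31.2 CPM without), with the highest IL-4 library just above the lowest untreated one. Neither this locus nor the one on chromosome 3 passed against a change of 1.5-fold. The locus at chr7:100327472-100328179, with 130 ± 2.82 against 113 ± 8.99 CPM, passed the test at an edgeR adjusted p of 0.0247, but its adjusted p was 0.0545 without IL-4 replicate 3 and 0.0615 without untreated replicate 3.

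IL-4 changed 191 of the 309 loci that could be tested: 102 rose and 89 fell (edgeR adjusted p under 0.05). In RNA from whole cultures fewer cells of a type and less RNA per cell cannot be told apart. The remaining 118 did not pass the test. That is 61.8% of the multi-exon intergenic loci, 33.0% upward and 28.8% downward, against 51.8% of all 13761 tested loci, 25.6% upward and 26.2% downward. Without both replicate 4 libraries 102 rose and 79 fell. The filter bears on this comparison: 32 of the loci reached its count level in all IL-4 libraries and in no untreated one, and 18 did the reverse, and all 50 were called. Without those 50, 70 rose and 71 fell of 259, or 54.4%, next to 49.9% of 13229 loci of all kinds after the same step. CPM of the groups did not overlap at 174 of the 309 loci, 94 higher and 80 lower with IL-4, where 48.6% of all tested loci had no overlap. The 50 loci are nearly bound to show no overlap, since they reached the count level in all libraries of a single group. The number was not taken without them, so no excess over all loci can be read from it.

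The changes were wide. The median size of the log2 fold change, sign aside, was 0.74, against 0.32 over all tested loci, whereas the signed median was 0.03. The 50 loci that reached the count level in one group weigh on every size given here. Without them the median size was 0.58, against 0.31 over all loci after the same step. Part of this gap goes with level. After that step the medians were 0.53 against 0.45 under 1 CPM and 0.80 against 0.48 between 1 and 4 CPM. At 4 CPM or more they were 0.36 against 0.27. Changes of 2-fold or more were found at 70 loci that rose and 54 that fell, against 8.03% and 8.04% of all tested loci. Changes of 10-fold or more were found at 24 loci that rose and 6 that fell, against 1.95% and 0.669% of all tested loci. Without the 50, 38 rose and 37 fell by 2-fold or more, 14.7% and 14.3% of the 259, against 6.09% and 6.77% of all loci after the same step. Without them 4 rose and 2 fell by 10-fold or more, the rises at 71.94 and 72.01 Mb of chromosome 1, 122.06 Mb of chromosome 3 and 41.93 Mb of chromosome 8 and the falls at 44.56 Mb of chromosome 13 and 26.50 Mb of chromosome 2. With glmTreat, edgeR's test against a minimum change, here 1.5-fold, 66 loci rose and 50 fell, where 9.02% and 8.91% of all tested loci did. At a level of 4 CPM or more the share called was 54.9% of 102 loci, next to 54.4% of 9731 loci of all kinds at that level. Between 1 and 4 CPM it was 71.3% of 108, against 50.4% of 2099, and under 1 CPM 58.6% of 99, against 40.1% of 1931. The low levels hold all of the 50. Without them, and with the same step for all loci, 67.7% of 96 were called between 1 and 4 CPM, against 47.8% of 1996. Under 1 CPM it was 32.8% of 61, against 24.9% of 1535. Falls of 2-fold or more, counted that way, were rarer than over all loci under 1 CPM, at 6.56% against 8.40%. The other 2-fold shares by level were higher than over all loci. Single-exon intergenic loci were called at 38.6% of 1779, annotated non-coding loci at 39.7% of 692 and coding loci at 54.3% of 10797. These shares are descriptions, since no test was made between classes.

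**Figure D1:**
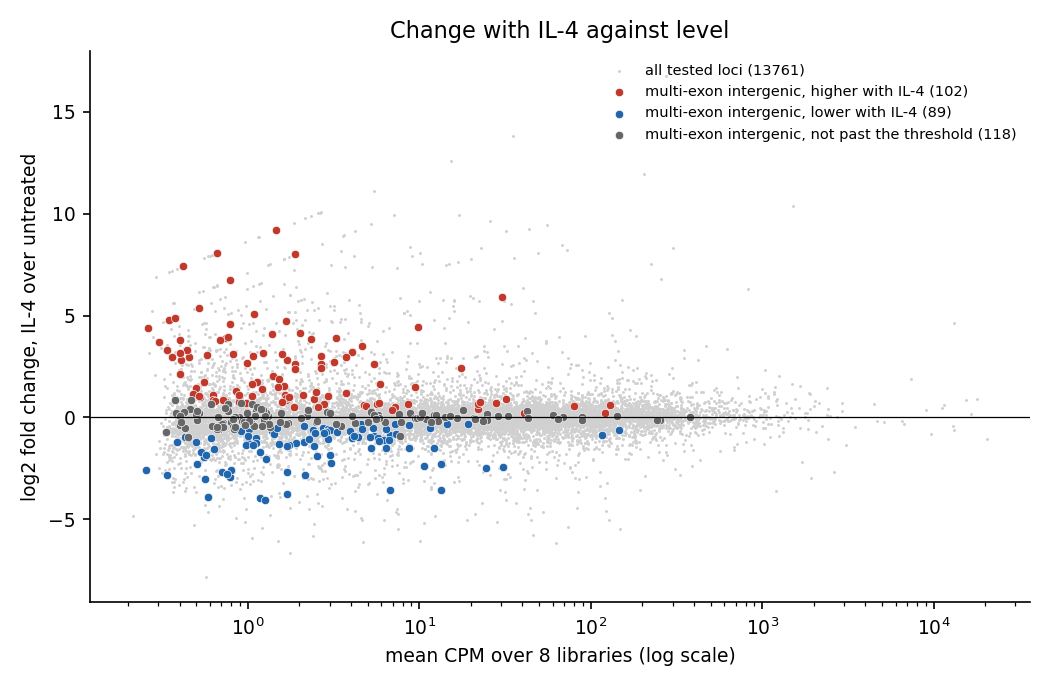
Log2 fold change, IL-4 over untreated, against mean CPM over 8 libraries (log scale) for all 13761 tested loci (small grey points) and for the 309 tested multi-exon intergenic loci, red where higher and blue where lower with IL-4 at an edgeR adjusted p under 0.05 and dark grey otherwise. Most multi-exon intergenic loci sit at low level, with a median of 1.69 CPM, and the largest changes of either sign are found there.

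The 12 largest rises, by fitted fold change, were loci at or near 0 in untreated cells. With 1 exception they were low with IL-4 too, at 0.675 to 3.78 CPM on average. All but that exception are among the 32 loci that reached the filter's count level in IL-4 libraries only, and all 32 were called. Their p-values therefore reflect the filter as well as the change. A 4-exon locus at chr5:75314634-75345686 on the minus strand had 57, 111, 84 and 43 counts in the IL-4 libraries and 0 in each untreated library. That is at least 99.7-fold higher, taking 3 counts over the group as the floor (edgeR adjusted p = 3.10e-05). A 3-exon locus at chr4:92273104-92323444 on the plus strand had 30, 41, 24 and 39 counts in the IL-4 libraries and 0 in each untreated one, at least 45.3-fold higher. It lies 459.18 kb from the nearest locus with a reference transcript. A 3-exon locus at chr1:72055708-72138616 had 15, 15, 24 and 30 counts with IL-4 and 0 without, at least 28.4-fold higher. One more locus, 2 exons at chr16:45037660-45067563, had 6, 10, 12 and 1 counts with IL-4 and 0 in untreated cells. It did not pass the filter and was not tested.

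Other rises had single reads in untreated cells. The 2-exon locus at chr7:146532716-146541903 had 97, 120, 113 and 49 counts with IL-4, and 1 count in untreated replicate 2 with 0 in the other 3 untreated libraries. The ratio was 384, with an exact 95% counting interval of 68.5 to 15214. The 4-exon locus at chr14:63080094-63149909 had 36, 50, 38 and 35 counts with IL-4 and again 1 count in untreated replicate 2, a ratio of 161 (28.5 to 6406). Its neighbour 33.4 kb away, an annotated non-coding locus, had 0 counts in untreated cells as well and averaged 1.12 ± 0.151 CPM with IL-4 (SD, n = 4). The 3-exon locus at chr5:148553295-148556459 had 102 counts in all with IL-4 and 2 without, a ratio of 51.7 (13.95 to 433). It lay 15.1 kb upstream of a coding locus on the same strand that rose by 5.11 on the log2 scale, with 247 ± 36.9 CPM in IL-4 and 7.13 ± 2.92 CPM in untreated cells.

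The exception was the 3-exon locus at chr3:122062692-122095592 on the minus strand, the highest of the strong responders. It had 1464, 1665, 1451 and 1467 counts in the IL-4 libraries and 25, 21, 27 and 29 in the untreated ones. The groups lay far apart, with 60.05 ± 2.72 against 1.01 ± 0.188 CPM (SD, n = 4 each). The log2 fold change was 5.90 (SE 0.11, edgeR adjusted p = 1.07e-10), a fold of 59.7. The nearest annotated locus, a coding one 27.1 kb away on the opposite strand, was higher by 1.94 on the log2 scale, with 182 ± 15.9 CPM in IL-4 and 47.6 ± 5.67 CPM in untreated cells.

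The remaining rises among the 12 had log2 fold changes between 4.59 and 5.06. At chr18:62927676-62932706 the counts were 28, 81, 72 and 31 with IL-4 and 1, 3, 1 and 1 without. At chr5:35508888-35513470 they were 82, 132, 81 and 32 with IL-4 and 4, 4, 4 and 0 without. In both, IL-4 replicate 4 was among the lower IL-4 libraries, and the groups did not overlap. The 2-exon locus at chr10:68152062-68168498, with 68 counts in all with IL-4 and 2 without, had a ratio of 34.5 (9.18 to 290). Its log2 fold change of 4.79 was 5.41 without both replicate 4 libraries. It lay 17.995 kb upstream of a coding locus on the same strand. That coding locus averaged 112 ± 24.9 CPM with IL-4 and 0.153 ± 0.122 CPM without it, a rise of 9.43. The other 2 rises were the locus at chr5:75344408-75362747, which overlaps the chromosome 5 locus at the top of the list on the opposite strand, and a 4-exon locus at chr12:17669847-17681424.

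The 12 largest falls were smaller than the rises, and 10 of them averaged under 4 CPM in untreated cells. The 4 deepest are among the 18 loci that reached the filter's count level in untreated libraries only, and all 18 were called. So is at least the locus at 98.36 Mb of chromosome 13, with 0.173 CPM or less in every IL-4 library, under the filter's level of 0.395 CPM. The p-values of these loci therefore reflect the filter as well as the change. The deepest was the 2-exon locus at chr7:118299369-118304210, with 2, 2, 3 and 7 counts in the IL-4 libraries and 73, 54, 67 and 47 in the untreated ones. It fell by 4.04 on the log2 scale (SE 0.34, edgeR adjusted p = 2.51e-06), and by 4.69 without both replicate 4 libraries. A 2-exon locus at chr11:59337360-59340232 had 4, 4, 1 and 5 counts with IL-4 and 63, 53, 37 and 74 without, a fall of 3.96 (SE 0.36). The coding locus 14.1 kb to its right fell too, by 2.80, and the annotated non-coding locus 12.6 kb to its left fell by 1.40.

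Among falls from a higher level, the 6-exon locus at chr13:44562439-44575704 on the minus strand was the most abundant. It had 1.82, 1.53, 1.90 and 3.10 CPM in the IL-4 libraries and 18.1, 23.8, 19.6 and 37.1 CPM in the untreated ones. The highest library of each group was replicate 4, and the groups were far apart, with a fall of 3.56 (SE 0.27, edgeR adjusted p = 1.35e-06). The 4-exon locus at chr2:26503343-26516991 covers 13065 nt of exons and lies 1.88 kb downstream of a coding locus at 0.140 CPM with IL-4 and 0.227 CPM without. It had 1.15, 0.335, 0.519 and 2.24 CPM with IL-4 and 15.4, 10.5, 11.2 and 12.9 CPM in untreated cells. It fell by 3.55 (SE 0.37), and by 4.21 without IL-4 replicate 4.

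Other deep falls stood beside annotated loci that did not pass the test. The locus at chr16:91352771-91357030 had 3, 5, 8 and 7 counts with IL-4 against 78, 81, 79 and 84 without, a fall of 3.76 (SE 0.24). The coding locus 14.3 kb away had 468 ± 23.7 CPM in IL-4 and 486 ± 29.7 CPM in untreated cells (SD, n = 4 each, edgeR adjusted p = 0.540). The locus at chr15:96293959-96305193 had 2, 0, 1 and 4 counts with IL-4 against 43, 27, 16 and 26 without. It lies 2.63 kb upstream of a coding locus on the same strand that had 140 ± 3.87 CPM with IL-4 and 147 ± 6.89 CPM without it (edgeR adjusted p = 0.280). Its own fall of 3.89 was 4.61 without IL-4 replicate 4. The last 6 falls, on chromosomes 1, 7, 9 and 13, were between 2.69 and 3.02 in size. They include the loci at 98.28 and 98.36 Mb of chromosome 13 and the locus at chr13:103448248-103474006, whose divergent coding neighbour 8.17 kb away fell by 1.22. The locus at chr1:155827081-155853304 fell by 2.92, and by 3.53 without both replicate 4 libraries.

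**Figure D2:**
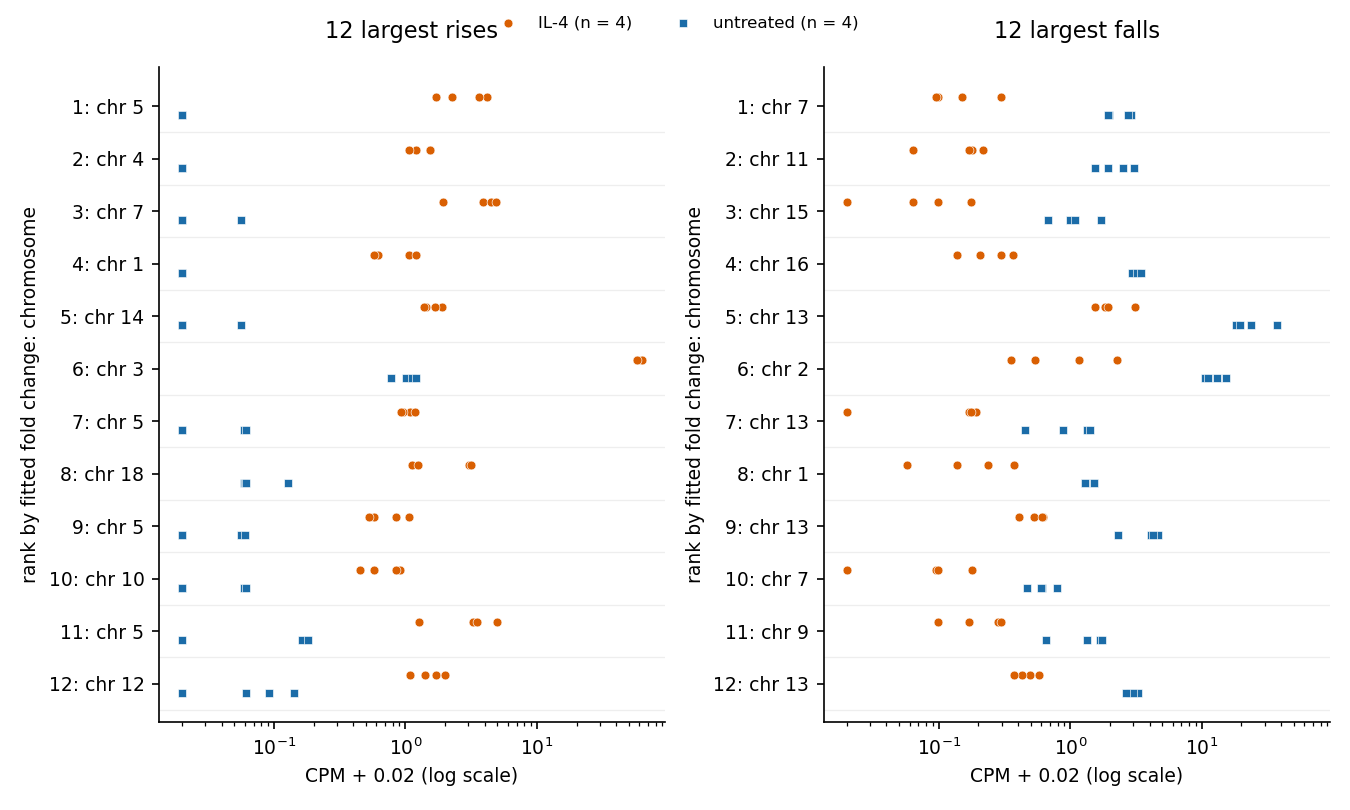
CPM plus 0.02 (log scale) of each library at the 12 largest rises (left) and the 12 largest falls (right), ordered by fitted fold change and named by chromosome, with IL-4 libraries as orange circles above and untreated libraries as blue squares below (n = 4 each). In none of the 24 loci do the groups overlap, which the choice by fold change makes nearly certain. The leftmost points of each panel are libraries with 0 counts.

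The share of loci that passed the test varied with intron length. The length groups were formed after the values were seen, and the difference between them was not tested. In 83 loci, 22.3% of the 373, the longest intron was under 500 nt, against 2.83% of multi-exon coding loci and 8.19% of multi-exon annotated non-coding loci. Of the 72 tested, 20 rose and 10 fell, or 41.7%, and the median size of the log2 fold change was 0.32. Of the 237 tested loci with a longest intron of 500 nt or more, 82 rose and 79 fell, or 67.9%, with a median size of 0.94. Without loci that reached the filter's count level in one group the shares were 34.4% of 64 and 61.0% of 195. The groups differ in level, at a median of 4.00 CPM for short and 1.54 CPM for long introns. At 4 CPM or more, 10 of 36 short-intron loci rose and 2 fell, the loci at 38.40 Mb of chromosome 15 and 123.21 Mb of chromosome 8, while 14 of 66 long-intron loci rose and 30 fell. Between 1 and 4 CPM the short-intron loci ran the other way, with 3 of 18 rising, at 30.80 Mb of chromosome 13, 11.44 Mb of chromosome 19 and 150.30 Mb of chromosome 2, and 7 falling, while 37 of 90 long-intron loci rose and 30 fell. Under 1 CPM 7 of 18 short-intron loci rose and 1 fell, at 26.27 Mb of chromosome 17, while 31 of 81 long-intron loci rose and 19 fell. The short-intron loci held 52.8% of all reads on the 373 loci in IL-4 and 50.0% in untreated cells, and 5 of the 8 most abundant loci were among them, those on chromosomes 1, 3, 8 and X and the one at 100.33 Mb of chromosome 7.

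**Figure D3:**
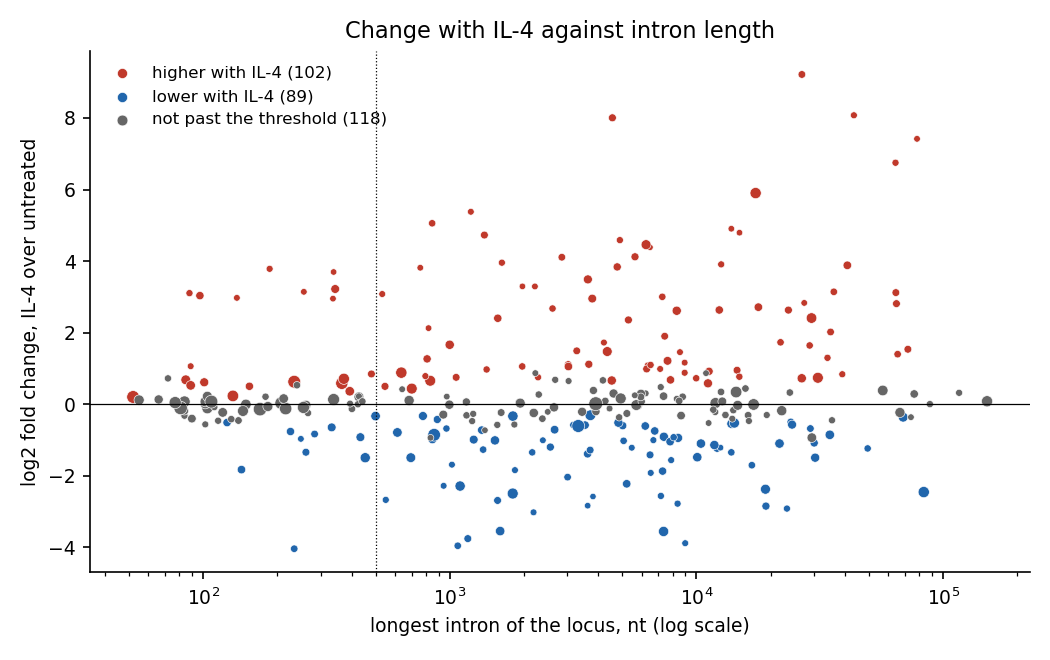
Log2 fold change, IL-4 over untreated, against the longest intron in nt (log scale) of the 309 tested loci, with larger points at higher mean CPM and a dotted line at 500 nt. Of the loci left of the line 30 of 72 passed the test, and of those right of it 161 of 237.

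By exon number, 58.4% of 173 tested loci with 2 exons and 66.2% of 136 with 3 or more passed the test. The 5 tested loci with most exons had between 8 and 17, and all 5 had lower mean levels with IL-4. The largest change among them was at chr7:111527628-111549372, with 8 exons, at 3.68, 3.09, 3.03 and 3.73 CPM in the IL-4 libraries and 11.1, 8.49, 7.09 and 11.2 CPM in the untreated ones. It fell by 1.48 (SE 0.16, edgeR adjusted p = 2.16e-05), and its coding neighbours 8.05 and 9.23 kb away fell by 1.35 and 2.90. The 11-exon locus at chr15:75711363-75718084, all of whose introns are between 80 and 226 nt, fell by 0.77 (1.83 ± 0.332 against 3.13 ± 0.142 CPM). A pair of loci 0.692 kb apart on the minus strand of chromosome 2, at 119.87 and 119.88 Mb, had 11 and 17 exons and both a log2 fold change of -0.58, with edgeR adjusted p of 0.0314 and 0.116. The first did not pass without IL-4 replicate 3 (0.0799), IL-4 replicate 4 (0.0932), untreated replicate 2 (0.0996), untreated replicate 4 (0.0675) or both replicate 4 libraries (0.135), with DESeq2 (0.0891), with no filter (0.0572) or against 1.5-fold (0.839), and the second passed without IL-4 replicate 3 (0.0192). The 11-exon locus at chr8:35646091-35753347 spans 107.26 kb and averaged 10.7 ± 1.29 CPM with IL-4 and 12.6 ± 1.18 CPM without it. Its log2 fold change of -0.23 did not pass the test (edgeR adjusted p = 0.0884), but passed with the replicate number as a block (0.0256) and without IL-4 replicate 4 (0.0322).

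Falls outnumbered rises close to annotated loci, and rises outnumbered falls far from them. These distance groups, too, were formed with the values known. Under 1 kb, 10 of 54 tested loci rose and 20 fell. From 1 to 5 kb 12 of 42 rose and 17 fell, and from 5 to 20 kb 23 of 81 rose and 27 fell. From 20 to 100 kb 43 of 105 rose and 24 fell, and at 100 kb or more 14 of 27 rose and 1 fell. Over all tested loci 25.6% rose and 26.2% fell. The shares were 18.5% and 37.0% under 1 kb, 28.6% and 40.5% from 1 to 5 kb and 28.4% and 33.3% from 5 to 20 kb. They were 41.0% and 22.9% from 20 to 100 kb and 51.9% and 3.70% in the farthest group. Loci that reached the filter's count level in one group were left out for the farthest group only. Without them 8 of its remaining 21 loci rose and 1 fell. Of its 24 loci whose span meets no annotated locus 13 rose and 0 fell. With 1 library left out the farthest group had 11 to 14 rises and 1 to 3 falls, with 13 and 3 of 28 without IL-4 replicate 2, and 2 falls without IL-4 replicate 1, 3 or 4 or untreated replicate 2 or 3. Without both replicate 4 libraries it had 14 and 0, and with no filter 15 and 3 of 31. Against a change of 1.5-fold, 9 of the 27 rose and 0 fell, by edgeR's glmTreat. Single-exon intergenic loci ran the same way, with 26 of 322 rising and 99 falling under 1 kb and 57 of 267 rising and 25 falling at 100 kb or more. Whether the 2 classes differ in this was not tested.

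**Figure D4:**
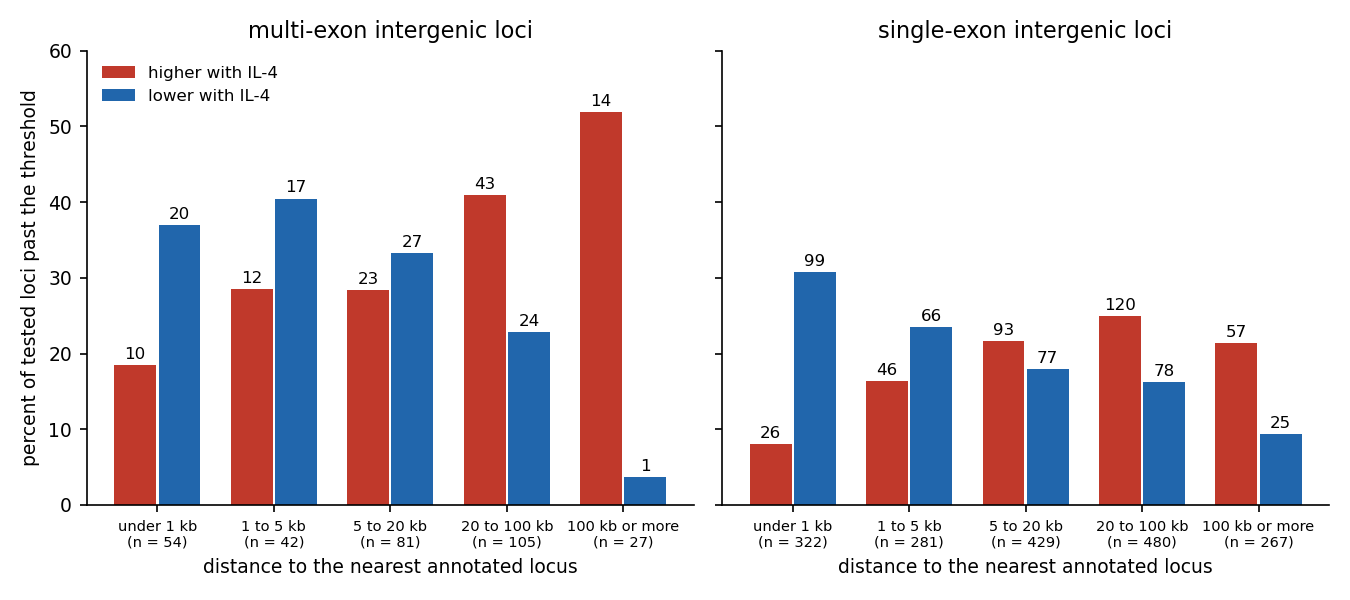
Percent of tested loci that passed the test (edgeR adjusted p under 0.05) upward (red) and downward (blue), by distance to the nearest annotated locus, for multi-exon (left) and single-exon (right) intergenic loci, with numbers of loci above the bars. In both classes falls outnumber rises under 1 kb, and rises outnumber falls at 20 kb or more.

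Divergent loci run away from the start of an annotated locus in the opposite direction, as transcripts of a shared promoter region do. Of 36 tested divergent loci within 5 kb, 14 fell and 4 rose, or 38.9% and 11.1%, against 26.2% and 25.6% of all tested loci. The share of falls within 5 kb was similar in other orientations. It was 41.7% of 12 convergent loci and, on the same strand, 36.7% of 30 upstream and 38.9% of 18 downstream loci. Rises were 33.3%, 30.0% and 27.8% there. The orientations were not compared by a test. Of all 100 tested divergent loci, at any distance, 24 fell and 33 rose. The 4 divergent loci within 5 kb that rose were picked out with their values known. The locus at chr8:41933948-41947665 starts 0.055 kb from a coding locus and had 16.4, 20.5, 20.9 and 17.7 CPM in the IL-4 libraries, against 0.871, 0.717, 1.26 and 0.573 CPM in the untreated ones. It rose by 4.46 (SE 0.18, edgeR adjusted p = 1.64e-08), and the coding locus rose by 6.80, with 507 ± 136 CPM in IL-4 and 4.52 ± 2.06 CPM in untreated cells. The loci at 145.69 Mb of chromosome 6 and 47.97 Mb of chromosome 14 rose by 1.72 and 1.21 beside coding loci that rose by 1.67 and 0.59. The locus at 92.49 Mb of chromosome 3 stands beside a coding locus with no more than 0.00932 CPM in either group.

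The other called loci closest to an annotated one were divergent as well, and fell. At chr18:23908834-23910817, 0.016 kb from a coding locus, the counts were 6, 4, 5 and 10 with IL-4 and 19, 22, 19 and 23 without, with no overlap and a fall of 1.69 (SE 0.28). The coding locus fell by 0.53. The loci at chr12:111837550-111839557, chr17:15664315-15667771 and chr5:123582842-123592137 fell by 0.68, 0.43 and 0.34, next to coding loci with edgeR adjusted p of 0.789, 0.428 and 0.0758. None of these 3 passed against a change of 1.5-fold, the third missed the threshold without both replicate 4 libraries (0.0522), and the first 2 did not pass with DESeq2 (0.0515 and 0.0740). The first also failed without IL-4 replicate 2 (0.0514), and the second without IL-4 replicate 1, 2 or 4 (0.0581, 0.0553 and 0.0849) or untreated replicate 1 (0.0728), without both replicate 4 libraries (0.0910) and with no filter (0.0534), and lay at the threshold without untreated replicate 3.

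Far from annotated loci the changes ranged from slight to all or none. The farthest tested locus, at chr12:95165394-95167554, lay 1762.6 kb from the nearest one and had 2.17 ± 0.373 CPM with IL-4 against 1.54 ± 0.267 CPM without (log2 fold change 0.50, edgeR adjusted p = 0.0432). It did not pass with DESeq2 (0.0507), without IL-4 replicate 1, 2 or 4 (0.0770, 0.0667 and 0.103) without untreated replicate 2, 3 or 4 (0.128, 0.0864 and 0.0853), or without both replicate 4 libraries (0.186). The locus at chr12:49655164-49657443, 826.43 kb away, had 7.79, 8.01, 9.69 and 8.43 CPM with IL-4, all above the 6.14, 6.02, 5.91 and 5.49 CPM without it, and rose by 0.52 (SE 0.10). The loci at 79.82 Mb of chromosome 7 and 71.77 Mb of chromosome 10 had log2 fold changes of 0.01 and 0.20 and did not pass. The 1 locus of the farthest group that fell lies at 67.31 Mb of chromosome 11, and an annotated locus meets its span (2.71 ± 1.21 CPM with IL-4, 5.41 ± 1.09 CPM without).

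Loci tended to change in the direction of their nearest annotated locus. Over all 219 pairs of a tested locus and a tested neighbour, the neighbour rose at 78, fell at 63 and did not pass at 78. Of 59 loci that rose and had a tested neighbour, the neighbour rose at 39, fell at 5 and did not pass at 15. Of 69 loci that fell, the neighbour fell at 35, rose at 11 and did not pass at 23. Over 219 pairs Pearson's r between the log2 fold changes was 0.50 and Spearman's rho 0.55, as a description across loci measured in the same libraries. For the annotated locus on the other side, at a median distance of 59.2 kb, r was 0.27 over 163 pairs. Single-exon intergenic loci had an r of 0.53 with their nearest annotated locus over 1211 pairs. The multi-exon locus had the larger change, sign aside, in 133 of the 219 pairs. Whether reads at the closest loci belong to unrecorded ends of the annotated transcript was not tested.

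**Figure D5:**
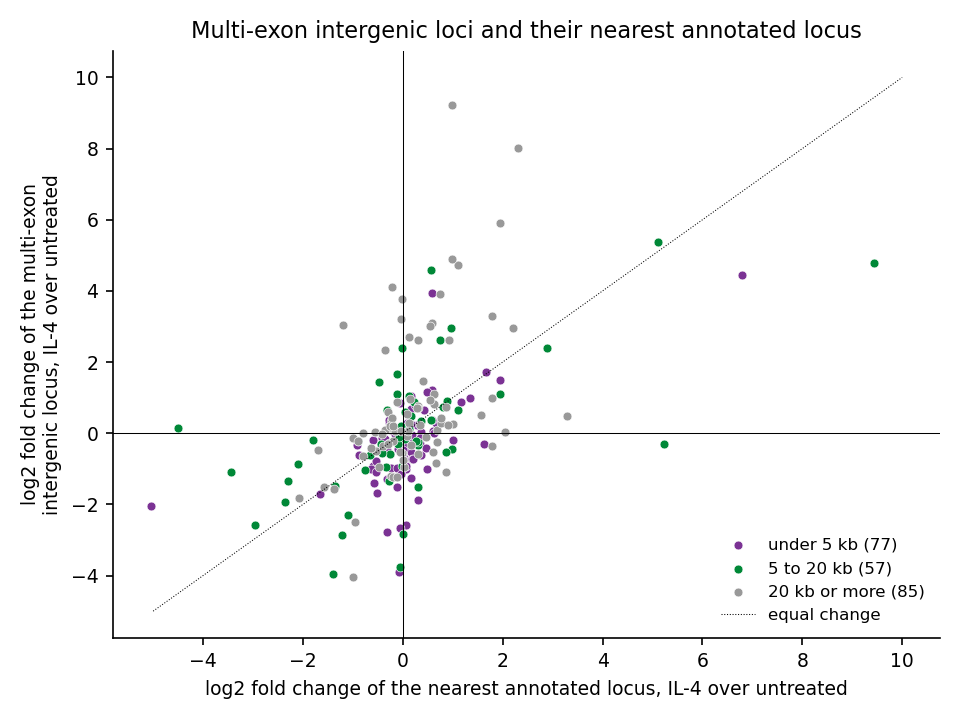
Log2 fold change, IL-4 over untreated, of 219 multi-exon intergenic loci (vertical) against that of their nearest annotated locus (horizontal), coloured by the distance between them, with a dotted line of equal change. Pairs in which both rose or both fell outnumber pairs of opposite sign among called loci, and several loci 20 kb or more away change far more than their neighbour.

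The exceptions to this trend were few among the rises. The 5 loci that rose beside a falling neighbour were likewise picked out with their values known. At 11.44 Mb of chromosome 19 the locus averaged 4.76 ± 1.87 CPM with IL-4 and 0.578 ± 0.0825 CPM without, a rise of 3.03, and its divergent coding neighbour 24.7 kb away fell by 1.19. At 50.56 Mb of chromosome 17 the locus rose by 4.11 and the coding locus 80.7 kb away fell by 0.22. The others, at 193.07 Mb of chromosome 1, 18.12 Mb of chromosome 13 and 22.14 Mb of chromosome 17, rose by 0.66, 0.58 and 1.45.

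Neighbouring multi-exon intergenic loci were compared in pairs. Within 50 kb of each other lay 46 pairs, formed by 83 loci, and both members were tested in 27 pairs. In 11 pairs both rose, in 6 both fell and in 1 they moved in opposite directions, in 4 pairs 1 member passed and in 5 none did. Among all 309 tested loci 33.0% rose and 28.8% fell, and how often pairs would match by chance was not tested. Members of a pair on opposite strands may share exonic bases. A group of 3 loci on chromosome 1, at 71.94, 72.01 and 72.06 Mb, rose together. The first and second rose by 3.88 and 3.49 on the log2 scale, and the third, with 0 counts in untreated cells, was at least 28.4-fold higher. The first had 159, 168, 164 and 124 counts with IL-4 and 11, 13, 10 and 8 without, and the second had 210, 215, 251 and 177 with IL-4 and 12, 20, 24 and 21 without. Around the strong responder on chromosome 3, the loci at 122.04 and 122.10 Mb rose by 1.90 and 1.10.

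Falls also lay next to each other. On the plus strand of chromosome 13 the loci at 98.28, 98.33 and 98.36 Mb fell by 2.69, 2.38 and 3.02. The middle one was the most abundant, with 101, 73, 73 and 97 counts in the IL-4 libraries and 410, 515, 454 and 439 in the untreated ones. On chromosome 16 the loci at 91.35 and 91.37 Mb fell by 3.76 and 2.68. The single pair of opposite direction lies on the minus strand of chromosome 13, where the 6-exon locus at 44.56 Mb fell by 3.56 and the locus at 44.60 Mb rose by 0.72 (7.23 ± 1.39 CPM with IL-4, 4.38 ± 0.584 CPM without, SD, n = 4 each).

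Isoforms give the same comparison at the level of single transcripts. Of the 785 isoforms 99, at 80 loci, reached 1 FPKM in at least 4 libraries and were tested, and 21 rose and 19 fell by limma, against 19.8% and 18.5% of all tested isoforms. Spliced isoforms made up 83 of the 99, with 15 rises and 17 falls, and single-exon isoforms the other 16. Of the 40 called isoforms 33 belonged to a locus called in the same direction in counts and 0 to one called in the other, while 4 belonged to loci that did not pass and 3 to loci not tested. The 4 lie at 97.40 Mb of chromosome 1, 77.13 Mb of chromosome 2, 10.09 Mb of chromosome 3 and 25.87 Mb of chromosome 12. The 3 lie at 158.45 Mb of chromosome 1, 62.81 Mb of chromosome 15 and 91.37 Mb of chromosome 16. At 19 loci with several tested isoforms, none had isoforms called both ways. At 7 of them all tested isoforms were called the same way, and at 4 only some were called. The rest had no called isoform, so opposite calls could not arise there. These values come from the authors' estimates of FPKM, and how many reads stand behind each is not known.

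The changed isoforms are described here by their exon chains, and which chain carried a locus change was not tested. At the strong responder on chromosome 3, a 2-exon isoform with a 13810 nt intron rose by 7.26 on the log2(FPKM + 0.1) scale. The single-exon isoform of the same locus rose by 2.16 (1.35 ± 0.120 FPKM in IL-4, 0.227 ± 0.0430 FPKM in untreated cells). The 3-exon isoforms of that locus stayed under the filter. At 41.93 Mb of chromosome 8 a 2-exon isoform of 3628 nt rose by 3.42 on the log2(FPKM + 0.1) scale (1.84 ± 0.355 against 0.0927 ± 0.0782 FPKM), and at 72.01 Mb of chromosome 1 a 4-exon isoform rose by 3.02 (2.93 ± 0.526 against 0.276 ± 0.0817 FPKM). Such values depend on the pseudocount: with 0.01 or 1 in place of 0.1 these were 4.79 or 1.37 and 3.40 or 1.62, and every one of the 10 isoforms of the naming rule had a smaller change with 1. The other named rises were a 2-exon isoform at 44.98 Mb of chromosome 2, at 1.02, 2.04, 3.32 and 4.93 FPKM with IL-4 and 0, 0, 0.502 and 0 without (a rise of 4.02, or 4.66 without untreated replicate 3, and 6.50 or 1.68 with a pseudocount of 0.01 or 1), and a 3-exon isoform at 5.89 Mb of chromosome 13, which rose by 2.46.

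Among isoforms that fell, the 6-exon chain at 44.56 Mb of chromosome 13 had 0.618, 0.463, 0.752 and 1.10 FPKM in the IL-4 libraries and 6.24, 8.60, 6.85 and 13.0 FPKM in the untreated ones. It fell by 3.39 (SE 0.29, limma adjusted p = 3.49e-05). The largest fall was a 3-exon isoform at 67.84 Mb of chromosome 5, with 1.43, 0, 0 and 0.759 FPKM with IL-4 and 7.16, 5.53, 4.32 and 6.21 FPKM without. Its fall of 4.10 rests on libraries listed at 0, was 5.80 or 2.23 with a pseudocount of 0.01 or 1, and was 4.83 when IL-4 replicate 1 was left out and 3.51 when replicate 2 or 3 of that group was. A 3-exon isoform with an 83485 nt intron at 84.44 Mb of chromosome 17 fell by 2.70 (0.145 ± 0.0648 against 1.45 ± 0.0808 FPKM), a 3-exon isoform at 98.33 Mb of chromosome 13 by 2.35, and a 2-exon isoform at 91.37 Mb of chromosome 16, whose exons are shared in full with another locus, by 2.94.

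The 373 loci together took a slightly smaller part of each library after IL-4. Their share of the total count was 0.324%, 0.323%, 0.331% and 0.317% in the IL-4 libraries and 0.344%, 0.350%, 0.351% and 0.356% in the untreated ones, with no overlap. The means were 0.324 ± 0.00554% with IL-4 and 0.350 ± 0.00503% without (SD, n = 4 each), a difference of -0.0265 percentage points (two-sided exact permutation p = 0.02857, the smallest that 4 against 4 allows). The difference depended on the scaling: against TMM library sizes it was -0.00171 (exact permutation p = 0.771). Within the 4 replicate pairs the exact p was 0.125, the smallest possible there. The largest contributions came from the locus at 126.88 Mb of chromosome 7 (-0.00751 points) and the one at 6.28 Mb of chromosome 4 (-0.00717 points), partly offset by the strong responder on chromosome 3 (0.00568 points). Between 353 and 357 of the loci had at least 1 count in an IL-4 library, against 338 to 344 in an untreated one. The same number was not taken over all loci, so it cannot be read as particular to these.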

How the data were processed

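The authors deposited whole-number read counts per locus, FPKM values per transcript and a merged annotation. The submitters' processing notes name CASAVA 1.8.2, TopHat2 2.0.9, Cufflinks 2.1.1, HTSeq and the build mm9, with no settings. Whether counting used strand, and what became of reads on overlapping loci, was not given in the sources used here. From the merged annotation came the class codes, exons and distances. Distance is the gap to the nearest locus that holds a reference transcript and lies outside the span, on either strand. Every value column had a library by its label, with 0 left over.

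For the counts of all loci edgeR 4.0.16 (R 4.3.3) was used, with TMM factors of 0.943 to 1.07, its default filter on low counts and the two-sided quasi-likelihood test between IL-4 and untreated, adjusted by Benjamini-Hochberg over 13761 loci, threshold 0.05. For isoforms limma 3.58.1 was run on log2(FPKM + 0.1) at 1 FPKM or more in at least 4 libraries (17500 isoforms), a scale that understates the change of low isoforms. Where a group had 0 counts, bounds use a floor of 3 counts over the group. Floors and the exact 95% intervals cover counting error only. Shares of counts were set against each other in two-sided exact permutation tests. DESeq2 1.42.0 served as an alternative.

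On simulated data for this comparison edgeR recovered 44 of 64 loci changed 1.5-fold, 63 of 66 changed 2-fold and 60 of 60 changed 4-fold, with 12 false calls among 13693 loci. Limma recovered 26 of 63, 44 of 64 and 59 of 60 isoforms, with 6 false calls among 16324. These rates were not split by level, so they do not give the power or error at loci of low level. Few of the simulated loci were changed, whereas 51.8% of tested loci were called in the data.

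Same-numbered libraries deviated together from their group means, with r of 0.390, 0.149, 0.228 and 0.179 over 13761 loci, so the replicate numbers were taken to pair the libraries, although the labels do not say what a number shares and IL-4 replicate 2 correlated more with untreated replicate 3 (0.261). The main test has no block.

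The loci and lists were chosen with earlier results of these data known. Loci were named by a rule: the 12 largest rises and 12 largest falls, the 8 most abundant, the 5 with most exons, the 5 called loci nearest to an annotated one, the 5 farthest and all with 0 counts in one group and at least 20 in the other, plus the 5 largest rises and falls among isoforms. The rule also asks for the annotated loci on both sides, which are given for some. None of the 175536 identifiers matched the gene tables at hand (0 matched), so marker genes were not analysed, and no mm9 sequence was used.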

Additional observations from a re-analysis of the deposited data

Results flagged for a closer look

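Of 96 groups of 4 libraries, nearly all of them at named loci, 8 had 1 library far from the other 3, by Dixon's ratio of the gap to the group's range at the 95% level. Chance alone flags about 1 group in 20 where values are continuous. A single count among libraries at 0 always gives a ratio of 1, so that rate does not hold for sparse counts. Untreated replicate 2 was the odd library at 3 of the largest rises: at 146.53 Mb of chromosome 7 and 63.08 Mb of chromosome 14 it held the single untreated count, so the gap was the whole range (1), and at 62.93 Mb of chromosome 18 it had 3 counts where the others had 1 (0.980). Without that library the untreated group had 0 counts at the first 2, which were then at least 93.1-fold and 39.0-fold higher with IL-4, taking 3 counts over the group as the floor. Untreated replicate 4 had 0 counts at 35.51 Mb of chromosome 5, where the other untreated libraries had 0.143 to 0.163 CPM (0.880), and IL-4 replicate 1 had 0 counts at 98.36 Mb of chromosome 13, where the other IL-4 libraries had 0.149 to 0.173 CPM (0.862). At 35.65 Mb of chromosome 8 untreated replicate 4 was highest, with 14.3 CPM against 11.8 to 12.1 (0.853). At 15.66 Mb of chromosome 17 untreated replicate 1 was highest, with 2.81 CPM against 2.29 to 2.36 (0.867). At 79.82 Mb of chromosome 7 IL-4 replicate 1 was highest, with 15.1 CPM against 13.9 to 14.1 (0.839).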

How the results depend on the processing

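The counts of changed loci stayed within 1.5 times of 102 and 89 under DESeq2 (101 and 83), other scaling factors, other filters (116 and 100 with none, 68 and 72 with a stricter one), the replicate block (110 and 92), loci without shared exonic bases (90 and 82) and each library left out (96 to 105 rises, 82 to 96 falls). Leaving out loci that reach the count level in one group, a choice made after seeing the data, gave 70 and 71. The test against 1.5-fold called 66 and 50. Isoform counts moved with the filter: 12 and 8 at 5 FPKM or more, 110 and 86 with no filter. They were 11 and 9 without both replicate 4 libraries, and 12 to 24 and 10 to 19 with 1 library left out, where the filter still asks for 4 libraries. With the replicate block they were 22 and 18. The share difference was -0.00171 points on TMM sizes, -0.0265 with the replicate block, and -0.0243 to -0.0288 with 1 library left out, where no p under 0.05714 is possible. Of 46 tested named loci 38 were called, 28 of them in every setting, and no named isoform changed its call, though isoform changes were smaller with a pseudocount of 1. The block changed the call of 1 named locus, at 35.65 Mb of chromosome 8, and of no other. A pair of uncalled loci near 0 changed sign. The locus at 115.55 Mb of chromosome 5 had -0.0051 with the stricter filter and -0.0331 to 0.0496 with 1 library left out, below 0 without IL-4 replicate 3 or untreated replicate 1 or 3. The one at 79.82 Mb of chromosome 7 had -0.0017 with the stricter filter and -0.0410 to 0.110 with 1 library left out, below 0 without IL-4 replicate 1 or untreated replicate 2 or 3. Causes were not tested. Depth limits the folds of loci with 3 counts or fewer in a group, which are bounds or have wide counting intervals.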
